A study of Homo sapiens with 4 samples.

Results

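The AP-1 family genes examined here were JUN, JUNB, JUND, FOS, FOSB, FOSL1, FOSL2, BATF, BATF3 and ATF3, 10 of the 19970 protein-coding genes of chromosomes 1 to 22 and X. They were chosen by name, with earlier results of these data known. For each gene the peaks within 1 kb of any annotated transcription start site (TSS) were collected. All peaks in the gene body and 50 kb on each side were collected as well. The peaks mark ZNF217, a zinc finger transcription factor that the study placed in the regulatory circuitry of acute myeloid leukemia (AML). ZNF217 was mapped by CUT&Tag, in which an antibody guides a transposase to the DNA around its target, in untreated MV4-11 and untreated U937 cells. Both are human AML lines of monocytic character, MV4-11 with a KMT2A fusion and U937 with a PICALM fusion, and each was represented by 1 ZNF217 library, and the IgG libraries are not analysed here. The deposited lists give peak positions on hg38 with neither heights nor counts, so read depth is unknown, and with no replicate of either line no test was made. Intervals are exact 95% intervals of counting error alone, and printed positions are uncertain by 1 bp.

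AP-1 is not 1 protein but a set of dimers of basic leucine zipper (bZIP) proteins, in which JUN proteins pair with each other or with FOS, ATF or BATF partners and bind short palindromic DNA. JUN and FOS genes are immediate early genes, switched on within minutes of a growth or stress signal through kinases that act on factors already bound at their promoters, among them SRF at the CArG box. In monocytes and macrophages AP-1 takes part in differentiation and in inflammatory gene expression. A peak in these lists shows where ZNF217 was called, not whether the gene was expressed.

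The sequences printed here hold motifs through which AP-1 or SRF is known to act, each under peaks of both lines. Such a motif lay under promoter peaks at 7 of the 10 genes, against 20.3% of 9409 protein-coding genes with promoter sequence under peaks of both lines. That sequence was also longer at the AP-1 genes, with a median of 1971 bp against 918 bp, and the part of length in the difference was not tested. The motifs were chosen with earlier results of these data known and for their known link to these genes. The difference from all genes is therefore a description and not a test. Motifs searched on both strands were the AP-1 site TGACTCA, the cyclic AMP response element (CRE) TGACGTCA, the JUN-type variant TGACATCA and the CArG box. The 7-base site is not contained in either 8-base site, so no match was counted under 2 names. All sequences are hg38, written 5′ to 3′ along the strand of the gene, with the matches in capitals. The FOS downstream and JUND upstream regions lie outside promoters, and the 3′ end of the FOSB stretch runs past the end of the U937 peak, while both of its motifs lie under it.
JUN promoter (chr1:58784067-58784314, minus strand): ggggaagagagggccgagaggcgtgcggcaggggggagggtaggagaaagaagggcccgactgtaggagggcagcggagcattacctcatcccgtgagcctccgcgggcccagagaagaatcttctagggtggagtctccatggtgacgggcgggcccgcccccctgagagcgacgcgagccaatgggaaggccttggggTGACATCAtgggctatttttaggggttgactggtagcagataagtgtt
JUND promoter (chr19:18281645-18281862, minus strand): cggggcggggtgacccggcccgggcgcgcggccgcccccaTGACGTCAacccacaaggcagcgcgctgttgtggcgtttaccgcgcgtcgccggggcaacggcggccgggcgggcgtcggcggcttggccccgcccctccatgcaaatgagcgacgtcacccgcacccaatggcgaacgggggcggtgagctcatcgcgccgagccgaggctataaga
JUNB upstream promoter (chr19:12789878-12790027, plus strand): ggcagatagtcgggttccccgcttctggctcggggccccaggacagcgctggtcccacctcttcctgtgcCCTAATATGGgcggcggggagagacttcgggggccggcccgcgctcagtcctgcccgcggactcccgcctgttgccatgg
FOS promoter (chr14:75278484-75278743, plus strand): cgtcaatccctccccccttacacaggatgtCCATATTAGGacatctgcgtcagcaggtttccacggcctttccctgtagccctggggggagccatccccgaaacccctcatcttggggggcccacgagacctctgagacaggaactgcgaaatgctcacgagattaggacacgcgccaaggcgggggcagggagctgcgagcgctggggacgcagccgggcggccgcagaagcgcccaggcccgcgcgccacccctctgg
FOSB promoter (chr19:45467631-45467881, plus strand): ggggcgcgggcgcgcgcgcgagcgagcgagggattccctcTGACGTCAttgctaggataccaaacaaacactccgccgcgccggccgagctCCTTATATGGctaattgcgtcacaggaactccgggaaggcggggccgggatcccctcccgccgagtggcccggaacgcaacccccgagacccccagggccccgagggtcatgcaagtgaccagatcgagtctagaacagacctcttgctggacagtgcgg
FOSL1 start site (chr11:65900373-65900399, minus strand): acggcgcgggTGAGTCAgaacccagca
FOSL2 start site (chr2:28392852-28392878, plus strand): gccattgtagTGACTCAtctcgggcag
FOS downstream region (chr14:75294240-75294389, plus strand): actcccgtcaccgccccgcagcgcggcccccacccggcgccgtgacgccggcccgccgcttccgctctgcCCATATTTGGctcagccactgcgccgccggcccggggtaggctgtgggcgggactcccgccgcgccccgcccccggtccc
JUND upstream region (chr19:18293544-18293690, minus strand): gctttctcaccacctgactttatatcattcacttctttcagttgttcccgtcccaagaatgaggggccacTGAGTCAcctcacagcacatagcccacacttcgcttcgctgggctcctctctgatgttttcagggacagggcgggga

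The JUN match was the variant site, at -67 bp from the canonical TSS (negative distances lie upstream). JUND had a CRE at -200 bp and FOSB had a CRE at -325 bp. CArG boxes lay at -314 bp in FOS, at -274 bp in FOSB and at -1538 bp in JUNB, each in sequence that GENCODE 44 gives no exon. FOSL1 had an AP-1 site that spans its canonical TSS and another at 996 bp in an intron, and FOSL2 had 1 in its 5′ untranslated region, 4 bp past the canonical TSS. No match of the 4 motifs lay under promoter peaks of both lines at BATF, BATF3 or ATF3, which says only that these letters are not in these windows. Among 21548 promoter windows of 300 bp in the RefSeq table (GRCh38.p14), 4.03% held the AP-1 site, 2.29% the CRE, 2.13% the JUN-type variant and 1.26% the CArG box. The promoter peaks of the family were all longer than 300 bp, so these shares are a scale and not a matched comparison.

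ZNF217 occupied the promoter of each of the 10 AP-1 family genes examined in both lines. Promoter peaks were found at 10 of 10 genes in MV4-11, against 59.0% of all protein-coding genes, and at 10 of 10 in U937, against 50.5%. Across both lines the count was again 10 of 10, against 47.4% of all protein-coding genes. The peaks numbered 12 in MV4-11, from 538 to 6351 bp wide, and 14 in U937, from 375 to 3874 bp wide. Of these, 10 of 12 MV4-11 peaks (83.3%, 51.6 to 97.9) were shared, which means that they overlapped a U937 peak by 1 bp or more, against 62.6% of all MV4-11 promoter peaks. In U937, 13 of 14 (92.9%, 66.1 to 99.8) overlapped an MV4-11 peak, against 87.0% of all U937 promoter peaks. The background share lay inside the members' interval in both lines.

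**Figure D1:**
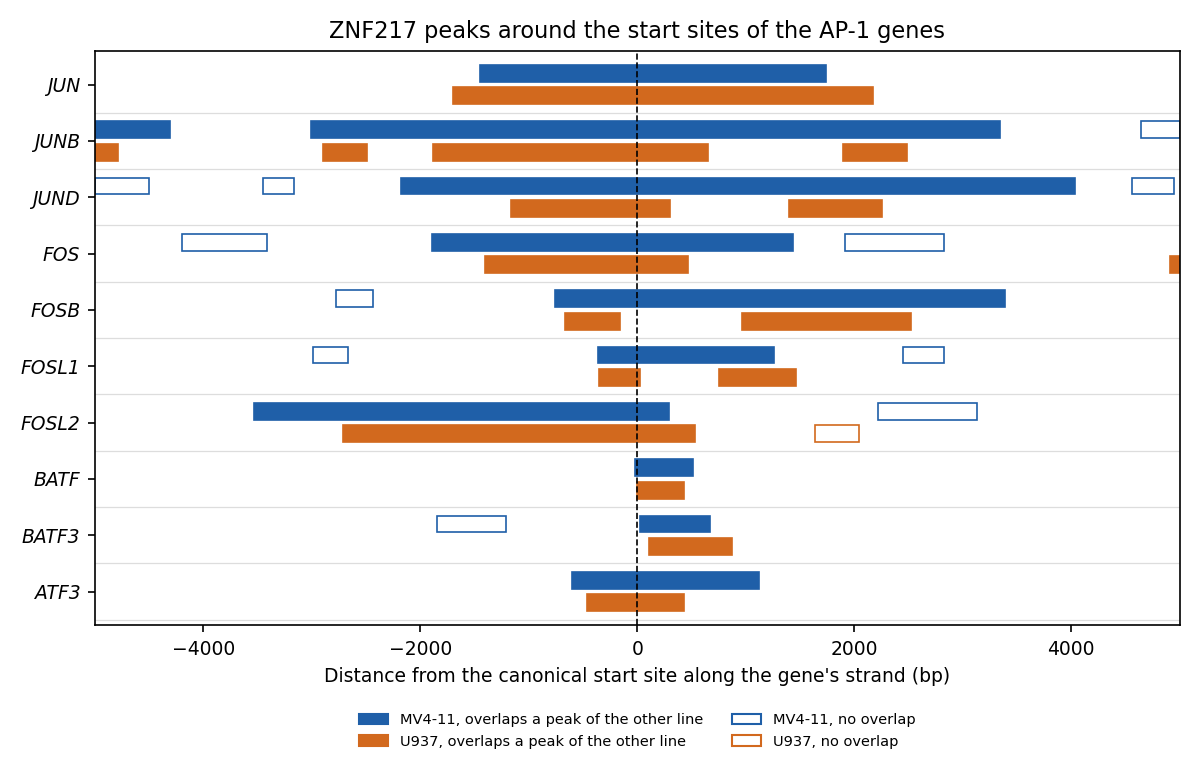
ZNF217 peaks within 5 kb of the canonical start site of each AP-1 gene, in bp along the strand of the gene, with MV4-11 in blue above and U937 in orange below. Filled bars mark peaks shared with the other line and open bars those that were not; the MV4-11 peaks of JUNB (6351 bp) and JUND (6208 bp) span their whole genes, while the peaks of BATF and BATF3 are short in both lines.

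The JUN proteins can form dimers among themselves as well as with FOS partners, and JUN itself is the best known AP-1 activator. At JUN (ENSG00000177606, minus strand of chromosome 1) the promoter peak was 3192 bp in MV4-11, from 58782307 to 58785499, and 3874 bp in U937, from 58781876 to 58785750. It was the family's widest promoter peak in U937, and JUN was 1 of 2 members, with BATF3, where the U937 peak was the wider. Its width lay at percentile 96.0 of the widest promoter peaks of all occupied genes in MV4-11 and at 99.6 in U937. Both peaks also overlapped the noncoding gene LINC01135.

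JUNB, which often restrains JUN activity and is a regulator of myeloid cell growth, carried the widest promoter peak of the family in MV4-11. That peak was 6351 bp, from 12788476 to 12794827 on chromosome 19, and covered 100% of the 1830 bp gene, which lies inside the annotated span of HOOK2. In U937 the promoter peak was 2536 bp, from 12789601 to 12792137, and it covered 35.6% of the gene. U937 had 2 further peaks within the span of the MV4-11 peak, 403 bp at -2.69 kb and 591 bp at 2.19 kb from the canonical TSS. JUNB was among the candidate circuit factors of the study, so its place here is not an independent choice.

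JUND, the JUN protein that is expressed most steadily in resting cells, resembled JUNB. Its MV4-11 promoter peak was 6208 bp, from 18277592 to 18283800 on chromosome 19, and covered 100% of the 1929 bp gene on the minus strand. U937 had a 1462 bp peak over the canonical TSS, from 18281325 to 18282787, and an 851 bp peak over the 3′ end of the gene, which lay within 1 kb of the other annotated TSS. The U937 peaks covered 42.7% of the gene. At both genes the wide MV4-11 peak corresponded to several separate U937 peaks.

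FOS, the prototype immediate early gene, whose protein needs a JUN partner to bind DNA, had a 3331 bp promoter peak in MV4-11, from 75276933 to 75280264 on chromosome 14. The U937 peak was 1870 bp, from 75277428 to 75279298. MV4-11 had a further 917 bp peak in the gene, within 1 kb of a downstream annotated TSS, and U937 had none there. The peaks covered 69.2% of the gene body in MV4-11 and 13.9% in U937.

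FOSB, whose truncated form accumulates on repeated stimulation, had a 4149 bp promoter peak in MV4-11, from 45467239 to 45471388 on chromosome 19, inside the annotated span of ERCC1. In U937 a 513 bp peak lay upstream of the canonical TSS and a 1559 bp peak lay downstream of it, and neither covered it. FOSL1, which encodes FRA-1, had a 1623 bp peak in MV4-11, from 65899125 to 65900748 on chromosome 11. U937 had a 375 bp peak over the canonical TSS and a 710 bp peak in the gene beyond it. FOSB and FOSL1 therefore shared with JUNB and JUND the layout of 1 peak in MV4-11 over several in U937.

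FOSL2, which encodes FRA-2, was alike in both lines at its main promoter, with 3827 bp in MV4-11, from 28389323 to 28393150 on chromosome 2, and 3247 bp in U937, from 28390142 to 28393389. Most of either peak lay upstream of the canonical TSS, over FOSL2-AS1. Each line had a further promoter peak by the downstream TSS, 917 bp in MV4-11 and 405 bp in U937, which did not overlap.

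The BATF proteins lack a transactivation domain and act in dimers with JUN proteins, often beside IRF factors. BATF had the narrowest promoter peak of the family in MV4-11, 538 bp from 75522449 to 75522987 on chromosome 14, and a 438 bp peak in U937 from 75522464 to 75522902. BATF3, needed for a class of dendritic cells, had 647 bp in MV4-11, from 212699167 to 212699814 on chromosome 1, and 762 bp in U937, from 212698967 to 212699729. Both BATF3 peaks lay just inside the gene and did not reach the canonical TSS, whereas those of BATF did.

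ATF3, a stress-induced factor that can repress as a homodimer, has 7 annotated TSSs. Peaks lay within 1 kb of 3 of them in each line, those from 212608670 to 212608915 on chromosome 1, with 1728 bp in MV4-11 and 893 bp in U937. No promoter peak lay at the other 4, which include the most upstream one at 212565334. Both ATF3 windows in the RefSeq table are at starts without a peak.

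Set against all occupied genes, the family divided by width. The median widest promoter peak was 3261.5 bp for the members in MV4-11, against 1084 bp over all occupied genes, and 1510.5 bp in U937, against 979 bp. In MV4-11 the peaks of JUN, JUNB, JUND, FOS, FOSB and FOSL2 exceeded the 90th percentile of all occupied genes (2306 bp). In U937 those of JUN, JUNB, FOS and FOSL2 exceeded it (1856 bp), and those of JUND (percentile 78.5) and FOSB (82.4) did not. FOSL1 lay at percentile 75.6 in MV4-11 and 26.2 in U937, and ATF3 at 79.1 and 42.9. BATF lay at 12.3 and 6.55 and BATF3 at 19.5 and 30.9, below the median of all occupied genes in both lines.

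**Figure D2:**
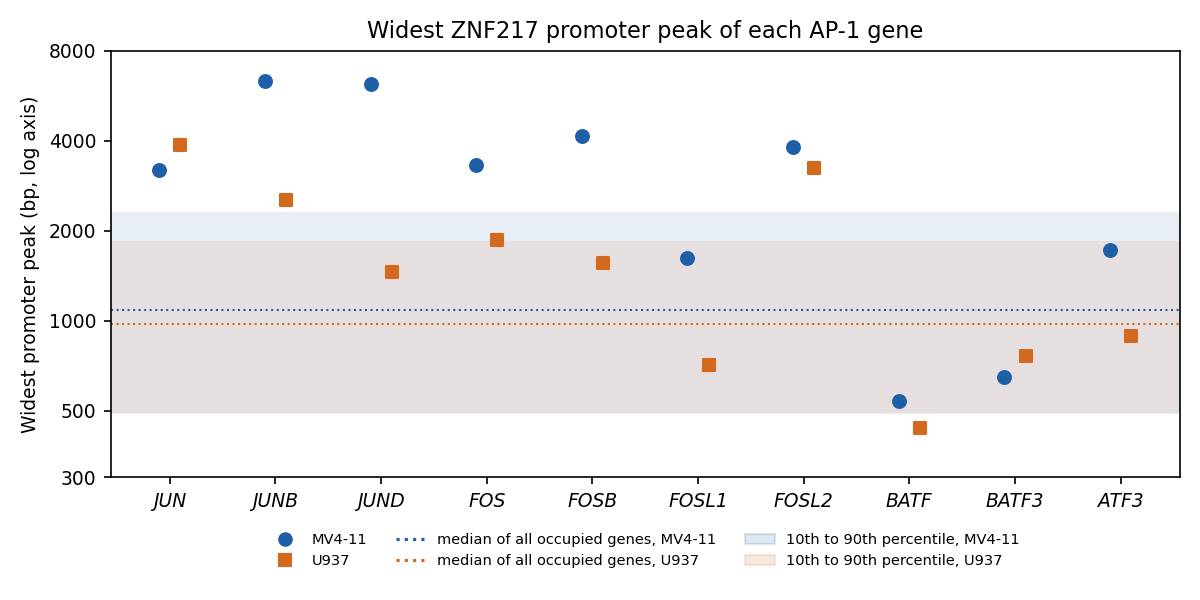
Width in bp, on a log axis, of the widest promoter peak of each AP-1 gene in MV4-11 (blue circles) and U937 (orange squares). Dotted lines mark the median of all occupied genes (1084 bp in MV4-11 and 979 bp in U937) and shaded bands their 10th to 90th percentile; JUN, JUNB, FOS and FOSL2 lie above the band in both lines, and BATF and BATF3 below the median in both.

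The MV4-11 promoter peaks of JUNB, JUND, FOSB and FOSL1 each overlapped more than 1 U937 peak. The JUNB peak overlapped 3 peaks that together spanned 3530 bp, with a largest gap of 1245 bp. The JUND peak overlapped 2 peaks of 2313 bp in all, with a gap of 1104 bp, the FOSB peak 2 of 2072 bp with a gap of 1124 bp, and the FOSL1 peak 2 of 1085 bp with a gap of 732 bp. Among all MV4-11 promoter peaks, 3.31% overlapped 2 or more U937 peaks, and among those of at least 1000 bp, 7.73% did. The peaks of JUNB (6351 bp), JUND (6208 bp) and FOSB (4149 bp) were far wider than 1000 bp. These shares are therefore not matched for width, and the part of width was not tested.

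Across the windows of 50 kb on each side, the family held 125 distinct peaks in MV4-11 and 77 in U937. In MV4-11, 59 of 125 (47.2%, 38.2 to 56.3) overlapped a U937 peak, and in U937, 68 of 77 (88.3%, 79.0 to 94.5) overlapped an MV4-11 peak. Over all peaks the shares were 40.4% and 68.6%. Of the 66 MV4-11 peaks without overlap, 8 were narrower than 330 bp, the lowest width in the U937 list. The peaks without overlap were narrow, with a median of 506.5 bp in MV4-11 against 1508 bp for those that overlapped, and of 453 bp in U937 against 848 bp. Of the window peaks, 39 in MV4-11 and 23 in U937 lay at the promoter of a neighbouring gene. Away from any promoter, 29 of 74 MV4-11 peaks (39.2%, 28.0 to 51.2) and 32 of 40 U937 peaks (80.0%, 64.4 to 90.9) overlapped a peak of the other line, against 25.4% and 50.9% of all peaks away from promoters. Peaks near 1 gene share that locus and are not independent of each other, so these intervals are narrower than a comparison of genes would give. Away from promoters the family's peaks were also wider, with medians of 634 bp (MV4-11) and 739.5 bp (U937), against 519 and 546 bp over all such peaks. The part of width in the sharing was not tested.

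Every U937 window peak was also found in MV4-11 at 7 of 10 genes, against 46.3% of all protein-coding genes with a U937 window peak. Every MV4-11 window peak was found in U937 at 1 of 10 genes, BATF, against 18.5%. U937 had more window peaks than MV4-11 at 1 of 10 genes, FOSL2, against 14.5%. JUN and BATF had equal numbers, and MV4-11 had more at the other 7. The members' windows held more peaks than the medians of 3 (MV4-11) and 2 (U937) over all protein-coding genes, except JUN in MV4-11. A window with more peaks is less likely to have all of them shared, and the part of peak number was not tested.

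**Figure D3:**
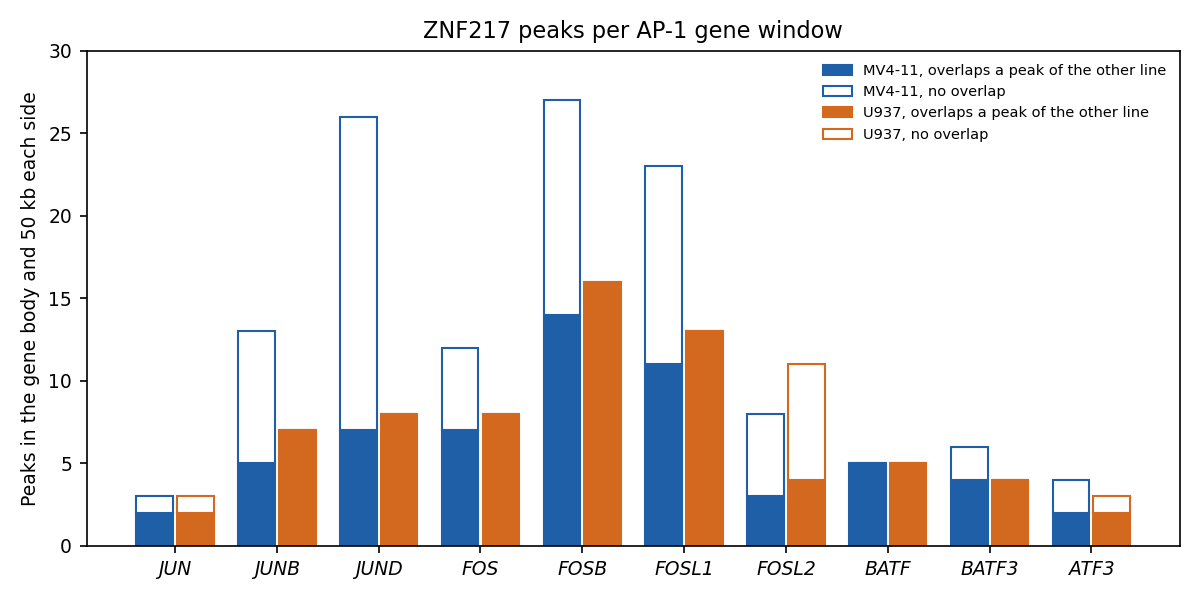
Number of ZNF217 peaks in the gene body and 50 kb on each side of each AP-1 gene, for MV4-11 (blue, left bar) and U937 (orange, right bar), with filled parts overlapping a peak of the other line and open parts not. The open parts are tall in MV4-11 at JUND (19 of 26 peaks) and FOSB (13 of 27), and FOSL2 has the largest open part in U937 (7 of 11).

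In MV4-11 the windows with most peaks were those of FOSB, JUND and FOSL1, in regions with other genes, while in U937 FOSL2, with 11 peaks, came before JUND. FOSB had 27 peaks in MV4-11 and 16 in U937, JUND had 26 and 8, and FOSL1 had 23 and 13. The median over all protein-coding genes was 3 in MV4-11 and 2 in U937. Other protein-coding genes with their canonical TSS in the window numbered 4 at FOSB, 4 at JUND and 9 at FOSL1. Most peaks of these windows were nearer to a neighbour than to the AP-1 gene. Of the peaks, 4 of 27 at FOSB, 6 of 26 at JUND and 3 of 23 at FOSL1 were nearest to the AP-1 gene itself in MV4-11.

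Around JUND the widest peak outside the promoter was the widest of its kind in the family, 4627 bp in MV4-11 and 3543 bp in U937, at -10.3 and -10.4 kb in intergenic sequence. In U937 this upstream peak was wider than the JUND promoter peak itself. It carried the AP-1 site of the JUND upstream region printed above. A further intergenic pair of 2444 and 2663 bp lay at -23.0 and -22.9 kb, nearest to LSM4.

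Around JUNB, MV4-11 had 13 peaks and U937 had 7, with the canonical TSSs of 7 other protein-coding genes in the window. A shared pair of 2846 bp in MV4-11 with 1119 bp in U937 lay at -5.73 and -5.34 kb, in an intron of HOOK2, and was nearest to JUNB. A 2906 bp peak at 9.40 kb over PRDX2, the widest outside the promoter in MV4-11, had no U937 counterpart. In U937 the widest was 2279 bp at -12.9 kb, at a HOOK2 promoter, and it was shared.

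Around FOSB the shared peaks outside the promoter lay in ERCC1, RTN2 and VASP. The widest was a pair at the VASP promoter, 3545 bp wide in MV4-11 and 2142 bp wide in U937, where it lay at 39.4 kb. At FOSL1 the widest were 3729 bp in MV4-11, at 48.2 kb and nearest to CFL1, and 1835 bp in U937, at 40.3 kb and nearest to MUS81. A shared peak of 2404 bp in MV4-11 with 1513 bp in U937 covered the 3′ end of FOSL1, nearer to the start of CCDC85B. In MV4-11 alone small peaks of 358 and 319 bp lay in the FOSB gene body and 1 of 378 bp in a FOSL1 intron.

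FOS stood in a window with no other canonical protein-coding TSS, and all of its 12 MV4-11 and 8 U937 peaks were nearest to FOS. Each of the 8 U937 peaks was shared, and so were 7 of the 12 in MV4-11. Most shared peaks lay downstream, from 5.45 to 22.9 kb in MV4-11 and from 5.27 to 23.1 kb in U937. The widest was a 3861 bp MV4-11 peak at 17.1 kb over the noncoding gene LINC01220, where U937 had peaks of 1675 bp at 15.6 kb and 1875 bp at 18.2 kb. In MV4-11 this distal peak was wider than the FOS promoter peak, and it held the CArG box of the FOS downstream region printed above. A shared upstream pair of 966 and 789 bp lay at -19.6 and -19.7 kb.

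JUN and FOSL2 also had no other canonical protein-coding TSS in their windows, though another annotated start of PLB1 lay in that of FOSL2. Of the FOSL2 peaks, 6 of 8 in MV4-11 and 9 of 11 in U937 were nearest to FOSL2, and the rest to PLB1. JUN had 3 peaks in each line, and its shared distal peak was 1460 bp in MV4-11, at -32.0 kb, and 2065 bp in U937, at -31.5 kb, inside LINC01135. The remaining JUN peaks were 543 bp at -25.6 kb in MV4-11 and 453 bp at 28.5 kb in U937. FOSL2 had 8 peaks in MV4-11 and 11 in U937, of which 3 and 4 were shared. Its shared distal peaks were 2063 bp at -32.9 kb and 1756 bp at -14.4 kb in MV4-11, facing 734 bp at -33.3 kb and 360 and 891 bp at -15.4 and -14.1 kb in U937. The gene body held 1 peak in MV4-11, 328 bp in an intron, and 2 in U937, 775 and 636 bp in introns, and none of these overlapped. The FOSL2 window thus differed from the other 9 in holding 7 of the 9 U937 peaks without an MV4-11 counterpart.

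At BATF the 5 peaks of each line matched pairwise. An intergenic peak at -6.84 kb in MV4-11 was 1083 bp wide, and its U937 partner at -7.54 kb was 1653 bp, in both lines wider than the promoter peak. An intronic pair of 500 bp in MV4-11 with 1069 bp in U937 lay at 20.5 and 20.1 kb, and pairs at 37.4 and 56.0 kb in MV4-11 were nearest to FLVCR2. BATF3 had 6 peaks in MV4-11 and 4 in U937, with shared downstream peaks of 926 and 593 bp at 28.2 and 28.1 kb, and of 658 and 691 bp at 16.4 and 16.5 kb. ATF3 had 4 and 3 peaks, and its shared distal peak, 779 bp in MV4-11 and 603 bp in U937 at 28.1 and 28.3 kb, lay also in the BATF3 window and nearest to GARIN4. Because ATF3 and BATF3 lie on the same stretch of chromosome 1, shared peaks of their windows were counted 1 time in the totals.

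**Figure D4:**
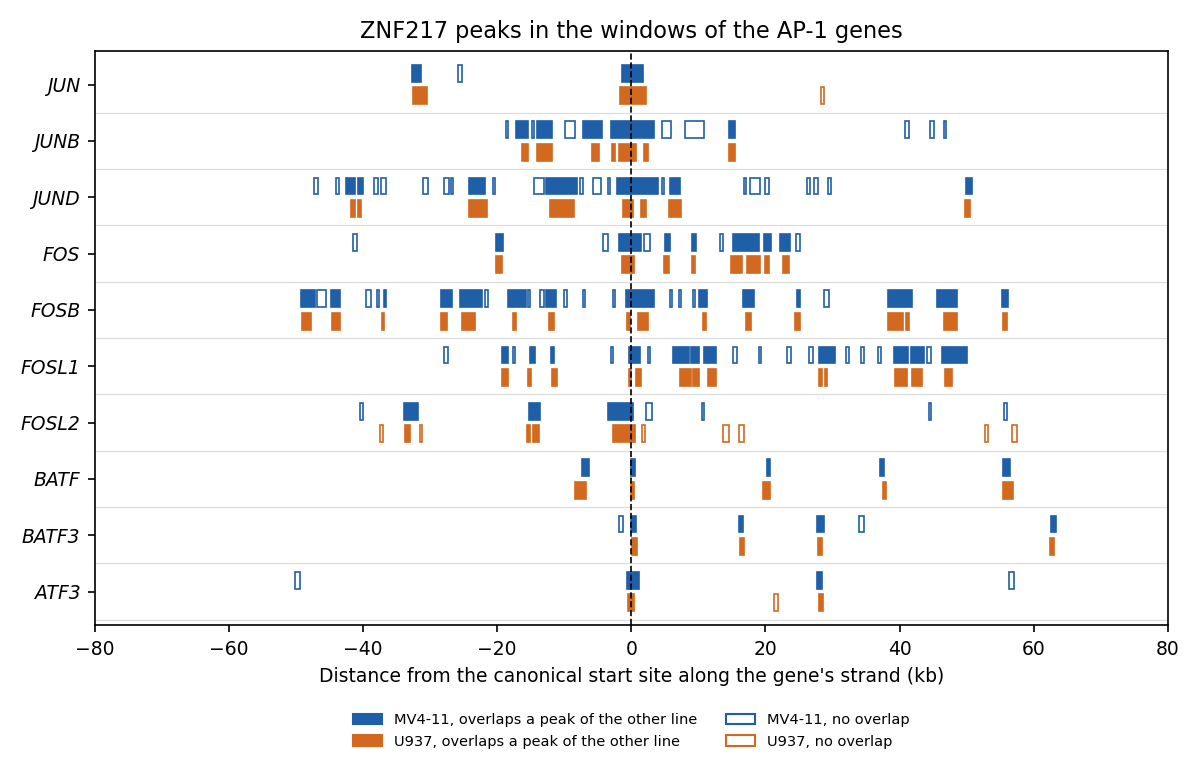
ZNF217 peaks in the window of each AP-1 gene, by distance in kb from the canonical start site along the strand of the gene, with MV4-11 in blue above and U937 in orange below and open bars for peaks without overlap. The downstream run of shared peaks at FOS reaches 22.9 kb in MV4-11, JUND has its wide shared peak at -10.3 kb, and FOSL2 shows open bars in both lines.

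The AP-1 site was searched in the central 300 bp of the window peaks. It was present in 10 of 125 MV4-11 peaks, against 6.88% of all MV4-11 peaks, and in 8 of 77 U937 peaks (10.4%), against 8.02% of all U937 peaks. In promoter peaks alone this central search found it in none of the 12 MV4-11 peaks, against 3.70% of all promoter peaks. In U937 it was in 1 of 14, against 4.13%. Over their whole length 4 and 3 of these promoter peaks held it, with no share over all promoter peaks to set beside them. Their median widths were 2460 bp (MV4-11) and 872 bp (U937), against 874 and 864 bp over all promoter peaks. The RUNX motif TGTGGT was present in 20 of 125 MV4-11 window peaks (16.0%), against 22.1%, and in 8 of 77 in U937 (10.4%), against 18.1%. The Sp/KLF motif GGGCGG was present in 37 of 125 (29.6%), against 31.7%, and in 33 of 77 (42.9%), against 38.5%. The ETS motif CCGGAAGT was present in 3 of 125 and 3 of 77, against 2.01% and 2.65%, and the CCAAT box in 41 of 125 and 19 of 77, against 26.0% and 24.5%. The motif assigned to ZNF217 was present in 13 of 125 (10.4%), against 13.3%, and in 4 of 77 (5.19%), against 11.5%. The CRE was present in 1 of 125 and 2 of 77, against 0.776% and 0.994%, the JUN-type variant in 3 and 1, against 1.10% and 0.911%, and the CArG box in 1 and 2, against 1.06% and 0.823%. Over whole peaks the shares of the AP-1, CRE, JUN-type and CArG motifs stood further from those of the lists. This did not hold for every motif. For RUNX they were 44.8% against 41.7% in MV4-11 and 39.0% against 38.2% in U937. For Sp/KLF they were 49.6% against 46.8% and 58.4% against 56.7%, and for ETS 4.8% against 4.31% and 7.79% against 5.65%. For the ZNF217 motif they were 30.4% against 29.3% and 19.5% against 27.6%, and for the CCAAT box 62.4% against 49.4% and 55.8% against 48.9%. The AP-1 site was then present in 30 of 125 MV4-11 peaks, against 14.5% of all peaks, and in 21 of 77 in U937 (27.3%), against 17.1%. The CArG box was present in 10 of 125, against 2.82%, and in 7 of 77 (9.09%), against 2.66%. The CRE was present in 6 of 125 and 5 of 77, against 1.90% and 2.33%, and the JUN-type variant in 8 and 4, against 2.64% and 2.50%. The family's window peaks were also wider, with median widths of 729 (MV4-11) and 787 bp (U937), against 621 and 686 bp over the whole lists, and the part of width in these shares was not tested. Under peaks of both lines, over whole peaks and windows, 35 matches of the AP-1, CRE, JUN-type and CArG motifs lay at 8 members. These matches were not counted in the windows of other genes, and the part of peak number and width in them was not tested.

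RefSeq promoter windows were matched for 8 members, all but FOSL1 and BATF3, in 9 windows. Their median GC content was 64.0%, against 62.3% over all 21548 windows, and the median ratio of observed to chance CpG was 0.763, against 0.742. JUND had the highest GC content (77.0%) and BATF the lowest (46.0%) among the members whose window lay under a peak.

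Other genes of the AP-1 pathway were counted in the same way. Of 29 other bZIP genes, 24 had a promoter peak in MV4-11 (82.8%), 23 in U937 (79.3%) and 21 in both (72.4%). Over all protein-coding genes the shares were 59.0%, 50.5% and 47.4%, so promoter occupancy above these shares was not particular to the AP-1 genes. Peaks in both lines included those of JDP2, a JUN-binding repressor, ATF1, ATF2 and ATF4, the effector of the integrated stress response. BATF2 and MAFA were among 3 genes with a peak in MV4-11 only, ATF6B was among those with a peak in U937 only, and MAF, BACH2 and HLF had none. Median widest promoter peaks in this list were 1207 bp in MV4-11 and 1301 bp in U937, narrower than the 3261.5 and 1510.5 bp of the AP-1 genes.

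Among 20 genes upstream of AP-1, mitogen-activated kinases and SRF-linked factors, 19 had a promoter peak in MV4-11, 15 in U937 and 14 in both. The shares of all protein-coding genes were 59.0%, 50.5% and 47.4%. MAPK3, which encodes an ERK kinase, MAPK14, which encodes p38α, and MAP2K1 were occupied in both. The JNK genes MAPK8, MAPK9 and MAPK10 and their activator MAP2K4 were among 5 genes of the list occupied in MV4-11 only. Over all 19970 protein-coding genes, 2307 were occupied in MV4-11 only, and the MV4-11 peak list is the longer. Among 20 textbook targets of AP-1, 14 were occupied in MV4-11, 10 in U937 and 10 in both. Against the same shares, the counts in U937 and in both lines lay near the 50.5% and 47.4% of all genes. MMP9, PLAU, PLAUR and CCL2 were occupied in both, IL1B, IL6, TNF and TIMP1 in MV4-11 only, and MMP1, MMP3, CXCL8 and CSF2 in neither.

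**Figure D5:**
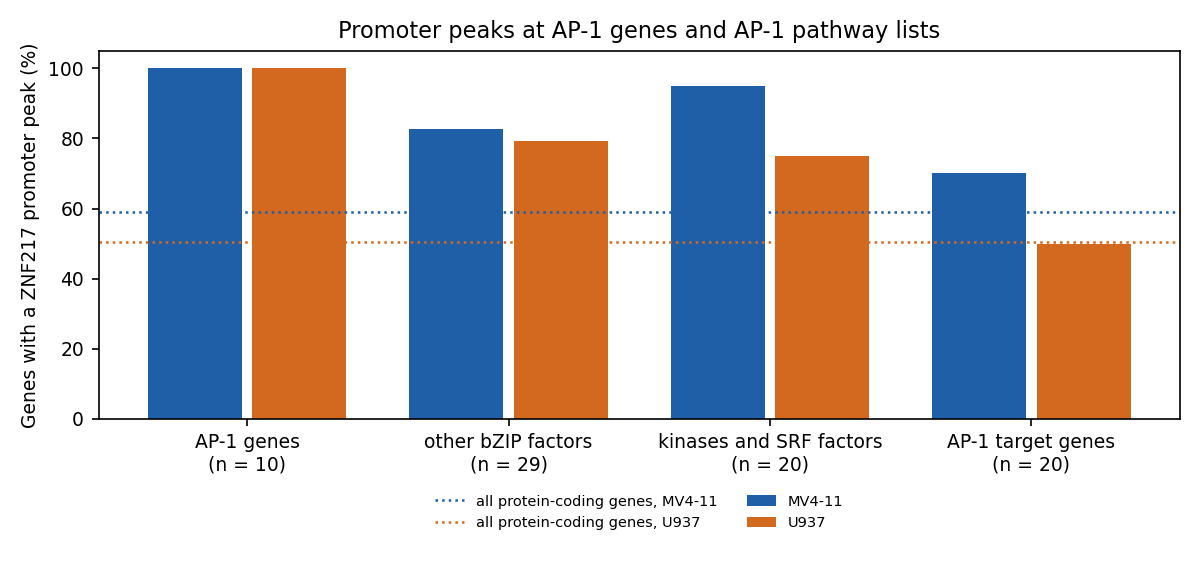
Share in % of the genes of each list with a ZNF217 promoter peak in MV4-11 (blue) and U937 (orange), with the number of genes under each pair of bars and dotted lines for all protein-coding genes (59.0% and 50.5%). The AP-1 genes stand at 100% in both lines, and 14 of 20 target genes are occupied in MV4-11 and 10 of 20 in U937.

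As a check of the labels, 8 of 9 myeloid marker genes had a promoter peak in MV4-11 and 5 of 9 in U937, against 59.0% and 50.5% of all protein-coding genes. SPI1 and CEBPB were occupied in both lines and LYZ in neither. The whole lists held 37635 peaks in MV4-11 and 22521 in U937, with median widths of 621 and 686 bp and lowest widths of 283 and 330 bp.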

How the data were processed

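ZNF217 CUT&Tag peak lists of MV4-11 and U937, 1 library per line, were analysed, and groups were taken from the sample titles. The submitters' processing notes name Bowtie2 2.4.4 for alignment to hg38 and MACS3 3.0 for peak calling, which the authors ran on each library. Use of the IgG libraries as control, duplicate removal and blacklisting are not given in the sources used here. The deposited values have another unit than signal or counts: they are start and end positions in bp. All 169 and 153 sequence names were found in the reference, and 0 peaks ran past a sequence end.

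Peaks on chromosomes 1 to 22 and X were intersected with GENCODE 44 starts of protein-coding genes, using SciPy 1.17.1, pandas 2.3.3 and NumPy 2.4.6 under Python 3.11.15, with Matplotlib 3.10.9 for figures. Overlaps were tested on simulated intervals. Peak distances run from peak midpoint to the canonical TSS, negative upstream. Depth is unknown, so precision rests on how many peaks or genes were counted. Sharing between the lines required 1 bp of overlap. Motifs were searched in the central 300 bp, or under both peaks of a shared pair for single sites. Named genes were all 10 members, the first 4 of each other list in each class of occupancy in list order, and the gene nearest to a printed peak, and a few genes of the lists are not reported here by name. Printed peaks were promoter, gene body, shared and widest distal peaks, summarised in gene-rich windows. The members, gene lists and motifs were chosen with earlier results of these data known. Alternatives were other promoter widths (500 bp, 3 kb, 1 TSS per gene), flanks (10 and 100 kb), overlap rules, a minimum width of 400 bp, lists of equal length, merging within 500 bp, the nearest gene alone and whole peaks for motifs.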

Additional observations from a re-analysis of the deposited data

How the results depend on the processing

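Of 76 alternative values, 63 stayed within 1.5 times the count or within the interval of the share, and 13 moved. The 10 of 10 members with a promoter peak stood in each line and in both lines under all 6 promoter and peak alternatives. A flank of 10 kb left 46 window peaks in MV4-11 and 32 in U937, a flank of 100 kb gave 194 in MV4-11, and keeping only peaks nearest to the member left 46 and 37. A reciprocal overlap of 50% lowered the shared promoter peaks to 50% in MV4-11 and 42.9% in U937, and the shared window peaks to 31.2% and 50.6%. Counting peaks within 500 bp as shared gave 100% of U937 promoter peaks. With lists of equal length (the 21737 widest peaks) 64.3% of MV4-11 window peaks were shared. The share over all peaks was not computed under these overlap rules or at equal length. These values therefore do not show whether the family differed from the lists there. Over whole peaks the AP-1 site was present in 30 MV4-11 and 21 U937 window peaks, against 14.5% and 17.1% of all peaks, and the longer sequence searched raises both the members' counts and the shares over the lists. No paired analysis was possible because each line had 1 library, and for the same reason no replicate could be left out. Depth limits the lists in an unknown way, and an absent peak does not show an absent protein.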

Other observations

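Some genes of the pathway lists had promoter peaks wider, in at least 1 line, than the members' median of 3261.5 bp in MV4-11 or 1510.5 bp in U937. A few of them are named here after their values were seen. DBP, a circadian bZIP factor, reached 5224 bp in MV4-11 against 1301 bp in U937. EGR1, an immediate early gene like FOS, reached 5133 bp in MV4-11 against 2100 bp in U937. DDIT3, the stress factor CHOP, was wider in U937, with 3467 bp against 1885 bp in MV4-11. JDP2, which encodes a repressive partner of JUN and lies near FOS and BATF, was below both medians, with 1675 bp in MV4-11 and 685 bp in U937.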
